A study of Mus musculus with 12 samples.

Results

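Open chromatin was examined at 7 genes that encode ETS transcription factors (Ets1, Ets2, Fli1, Etv1, Etv4, Etv5 and Etv6) in sorted mouse medulloblastoma cells. A peak of a library's ATAC-seq list was counted at one of them if its midpoint fell in the mm10 span of that gene, or up to 100 kb away with no other protein-coding gene nearer. By this rule 202 of 218906 peaks were at the 7 genes, and overlapping peaks of the 12 lists merged into 48 regions, of 44242 regions in all. The genes were picked with earlier results of these data known, so what follows describes them and no p-value below is independent evidence about them.

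ETS factors share a DNA-binding domain that recognises a GGAA core. Fibroblast growth factor and other receptor tyrosine kinases act on several of them through the MAP kinase ERK: Ets1 and Ets2 are activated by ERK phosphorylation, and the PEA3 subfamily (Etv1, Etv4 and Etv5) is both activated and transcribed downstream of FGF receptors. Fli1, a close relative of Erg, is known for its role in blood and endothelial cells, and Etv6 is a repressor of the family. ATAC-seq marks DNA that a transposase can enter, so a listed peak is a stretch of accessible chromatin and says nothing of whether the gene is transcribed.

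All tumours were sonic hedgehog (SHH) medulloblastomas of untreated mice heterozygous for Ptch1 (Ptch1+/-), the gene of the hedgehog receptor that restrains the pathway, and were taken at endpoint. Cells with eGFP signal (SOX2+, 4 libraries), which the submitters call stem-like, were set against cells without it (SOX2-, 4 libraries), the bulk of the tumour. Within SOX2+ cells, those with RFP signal (SOX2+/MKI67+, cycling, 2 libraries) were set against those without (SOX2+/MKI67-, non-cycling, 2 libraries). What drives the reporters, the age of the mice and whether libraries shared a tumour are not given in the sources used here, so p-values measure the spread between these libraries only.

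The lists held 9377 to 25272 peaks in SOX2+ cells, 7009 to 26206 in SOX2- cells, 18738 and 24694 in SOX2+/MKI67+ cells, and 19229 and 17615 in SOX2+/MKI67- cells. SOX2- replicate 1 and SOX2+ replicate 2 had the shortest lists. Read counts were not used here and the depth is unknown, so a region missing from a short list may be accessible and unlisted. Sox2 itself averaged 4.25 ± 1.71 peaks in SOX2+ libraries, against 0.75 ± 0.50 in SOX2- libraries (SD, n = 4 each), with a log2 difference of 1.49 and an adjusted p of 0.0576 (limma). That p was 0.0198 when genes with the same number in every library were left out. Mki67 had 3.5 ± 2.1 peaks in SOX2+/MKI67+ cells and 1.5 ± 0.7 in SOX2+/MKI67- cells (SD, n = 2 each; adjusted p = 1.0, limma).

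The 250 bases before an annotated start were at hand for Ets2, Etv1, Etv5 and Etv6, from RefSeq on GRCm38.p6. For Etv1 and Etv5 the source held 2 such windows each, of which 1 was used. Shown are the 2 richest in CpG (Etv5 and Ets2) and the poorest (Etv1), which was also the least often listed. Capitals mark CpG dinucleotides, and each runs 5′ to 3′ on the gene's strand. The Etv5 window is chr16:22439571-22439820 on the minus strand, that of Ets2 is chr16:95702157-95702406 on the plus strand, and that of Etv1 is chr12:38779832-38780081 on the plus strand.
Etv5: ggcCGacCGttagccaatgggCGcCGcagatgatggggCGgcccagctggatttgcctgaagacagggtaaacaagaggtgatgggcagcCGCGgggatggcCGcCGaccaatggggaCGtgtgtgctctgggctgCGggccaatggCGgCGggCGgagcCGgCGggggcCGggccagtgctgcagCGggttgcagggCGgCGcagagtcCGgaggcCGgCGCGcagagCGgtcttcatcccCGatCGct
Ets2: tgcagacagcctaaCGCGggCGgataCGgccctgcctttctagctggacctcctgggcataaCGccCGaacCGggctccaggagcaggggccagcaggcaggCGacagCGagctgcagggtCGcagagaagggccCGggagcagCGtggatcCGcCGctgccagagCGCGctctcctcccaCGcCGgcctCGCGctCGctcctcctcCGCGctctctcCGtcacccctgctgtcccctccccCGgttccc
Etv1: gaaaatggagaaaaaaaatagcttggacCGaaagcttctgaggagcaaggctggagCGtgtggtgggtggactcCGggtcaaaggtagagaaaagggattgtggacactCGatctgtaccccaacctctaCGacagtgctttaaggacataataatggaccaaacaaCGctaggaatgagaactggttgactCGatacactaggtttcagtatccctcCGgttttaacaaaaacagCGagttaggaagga

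A peak overlapped the Etv5 window in 12 libraries, the Ets2 window in 11, the Etv6 window in 11 and the Etv1 window in 3. The windows of Etv5, Ets2, Etv6 and Etv1 held 27, 25, 16 and 9 CpG dinucleotides, against a median of 6 over 32536 windows of all genes. Their GC content was 71.2%, 71.6%, 60.4% and 46.4% in the same order, against a median of 52.4%. These are 4 windows only, and a relation between listing and CpG content was not tested.

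Both strands were searched for 6 short motifs. The Etv1 window held AGGAAG, the PEA3 form of the ETS motif, on the printed strand at position 243, counted from 1 at the 5′ end. It held ACAAT, the SOX core, on the opposite strand, which reads ATTGT from position 98 of the printed sequence. AGGAAG occurs in 29.6% of all windows and ACAAT in 27.4%. The Etv5 window held the E-box CAGCTG at position 44, which 13.1% of all windows hold. No window of the 4 held the ETS core CCGGAA (12.1% of all windows), the AP-1 motif TGANTCA (6.73%) or the GLI core GGGTGGT (3.92%).

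At Ets1, on chromosome 9, SOX2+ cells had more listed peaks on average than SOX2- cells. Ets1 had 6, 2, 7 and 9 peaks in SOX2+ replicates 1 to 4, 1, 6, 1 and 3 in SOX2- replicates 1 to 4, 4 and 6 in SOX2+/MKI67+ replicates 1 and 2, and 7 and 6 in SOX2+/MKI67- replicates 1 and 2. SOX2+ replicate 2, one of the 2 shortest lists, and SOX2- replicate 2, the longest list, make the groups of the first sort overlap. Per 10000 peaks of the library Ets1 had 3.57, 2.13, 3.56 and 3.56 in SOX2+ cells, against 1.43, 2.29, 0.790 and 1.38 in SOX2- cells.

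The difference in log2(peaks per gene + 1) at Ets1 between SOX2+ and SOX2- cells was 0.81 ± 0.20 (SE) with an adjusted p of 0.150 (limma, Benjamini-Hochberg over 14244 genes). It missed the threshold of 0.05. Leaving out SOX2- replicate 1 gave 1.03 with an adjusted p of 0.0139, and leaving out the 2 shortest lists gave 1.01 with an adjusted p of 0.034. The call at Ets1 thus rests on which libraries enter. It passed in these 2 of 23 alternatives only. Without a covariate for list length the difference was 0.98 with an adjusted p of 0.74. With each list cut to its 7009 strongest peaks it was 0.65 with an adjusted p of 0.216 (limma throughout). Between SOX2+/MKI67+ and SOX2+/MKI67- cells the difference was -0.57 ± 0.29 (SE; limma adjusted p = 1.0).

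**Figure D1:**
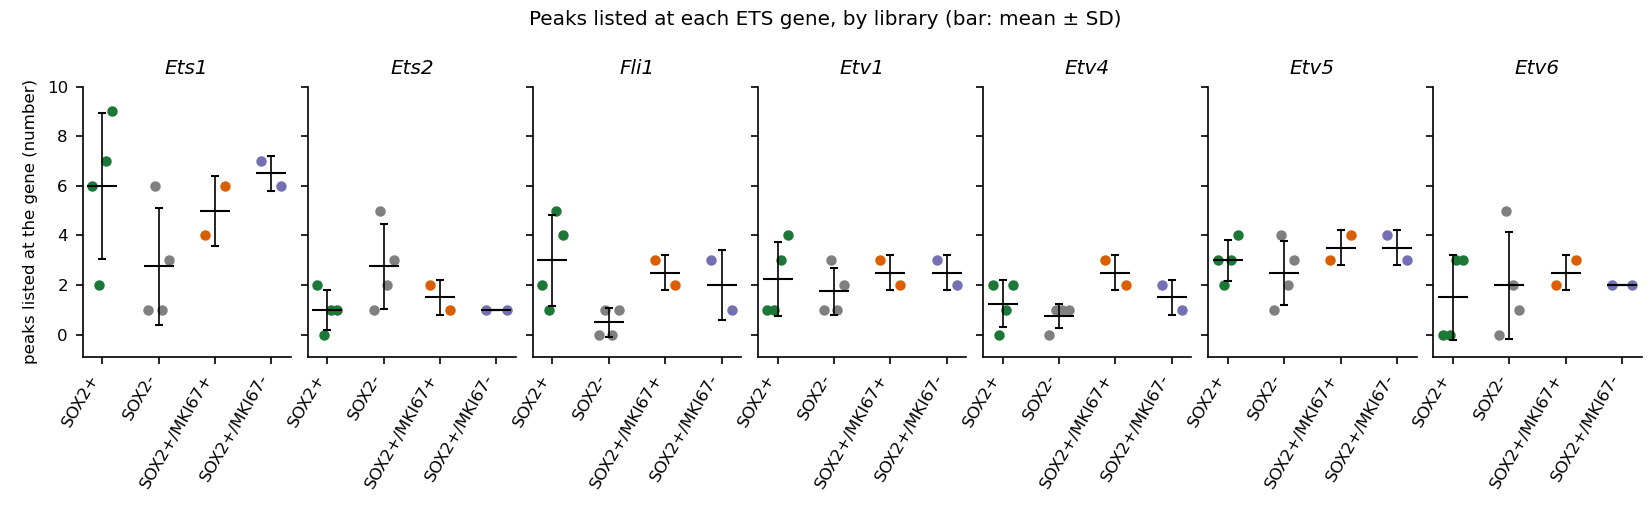
Number of listed peaks at each of the 7 ETS genes (y axis) in each library (points), by sorted group (x axis), with the mean and SD as bars. Ets1 averaged 6 peaks in SOX2+ and 2.75 in SOX2- libraries, and the groups of either sort overlapped at all 7 genes.

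Of the 14 regions at Ets1, 1 was listed in all 12 libraries and 5 in a single library. The region chr9:32695650-32696397, inside the gene 59.8 kb from its start in the annotation, was listed in all 12 libraries. Its peak stood within the top 15.6% of every list ranked by q-value, and within the top 0.669% of SOX2+ replicate 4. Ranked among the 5397 regions listed in all 12 libraries, it stood between the top 2.76% and the top 44.4%. Of all regions given to a gene, 13.5% were listed in all 12 libraries.

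A further 4 regions at Ets1 were found in 3 or 4 SOX2+ libraries and in none of the SOX2- libraries. The region chr9:32668071-32668713, inside the gene, was listed in 4 of 4 SOX2+, 0 of 4 SOX2-, 2 of 2 SOX2+/MKI67+ and 2 of 2 SOX2+/MKI67- libraries. In the SOX2+ lists its peak had a fold over local background, by the authors' peak caller, of 3.38, 4.77, 4.31 and 4.88 in replicates 1 to 4, and stood in the top 77.2%, 40.9%, 42.6% and 26.0%. It was thus a mid-list peak even where it was listed.

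The region chr9:32685777-32686311, also inside Ets1, was in 3 of 4 SOX2+ lists, in 0 of 4 SOX2- lists and in all 4 lists of the MKI67 sort. The regions chr9:32735634-32736152, inside the gene, and chr9:32764381-32764924, 6.83 kb past its end, had one pattern. Each was listed in 3 of 4 SOX2+, 0 of 4 SOX2-, 1 of 2 SOX2+/MKI67+ and 2 of 2 SOX2+/MKI67- libraries. For all 3 of these regions the SOX2+ library without a listing was replicate 2. In SOX2+ replicates 1, 3 and 4 the region chr9:32685777-32686311 stood at 98.1%, 29.0% and 58.3% of the list. Its peak in replicate 1 was thus among the weakest of that list. The region chr9:32735634-32736152 stood at 61.9%, 42.5% and 25.1%, and chr9:32764381-32764924 at 73.4%, 20.8% and 48.6%.

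The 6 peaks that SOX2- replicate 2 listed at Ets1 were the region shared by all libraries and 5 others, none of them a region of the SOX2+ set. The region at the start of the annotated Ets1 span, chr9:32636027-32636252, was listed in this library alone. No SOX2+, SOX2+/MKI67+ or SOX2+/MKI67- library listed it. Transcript starts inside the span were not examined, so this says nothing of which promoter of Ets1 is in use.

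Fli1 lies 92.8 kb before Ets1 on the same chromosome, with no protein-coding gene between them. It had 2, 1, 5 and 4 peaks in SOX2+ replicates 1 to 4, 0, 1, 0 and 1 in SOX2- replicates 1 to 4, 3 and 2 in SOX2+/MKI67+ cells, and 3 and 1 in SOX2+/MKI67- cells. Every SOX2+ library had at least the single peak that the highest SOX2- libraries had. The log2 difference between SOX2+ and SOX2- cells was 1.26 ± 0.30 (SE; limma adjusted p = 0.122), and it missed the threshold. It was 0.25 when each list was cut to its 7009 strongest peaks, and 0.02 on the upper 50% of each list. Between SOX2+/MKI67+ and SOX2+/MKI67- cells it was 0.13 ± 0.42 (SE; limma adjusted p = 1.0).

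All 5 regions at Fli1 lay inside the gene. The region chr9:32434253-32435166 was in 4 of 4 SOX2+ lists, in 0 of 4 SOX2- lists and in all 4 lists of the MKI67 sort. In SOX2+ replicates 1 to 4 it stood at 53.0%, 73.2%, 47.6% and 26.1% of the list. The region chr9:32456079-32456519 was listed in 3 of 4 SOX2+, 0 of 4 SOX2-, 2 of 2 SOX2+/MKI67+ and 0 of 2 SOX2+/MKI67- libraries. In SOX2+ replicates 1, 3 and 4 it stood at 80.0%, 99.8% and 33.1% of the list, with folds over local background of 3.65, 2.85 and 6.24. The region chr9:32491434-32491937 went the other way and was listed in 2 of 4 SOX2- libraries and in no other. Those were replicates 2 and 4, the longest SOX2- lists, so 2 of 4 SOX2- libraries had it and it did not meet the rule of 3 of 4 against 0 of 4.

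**Figure D2:**
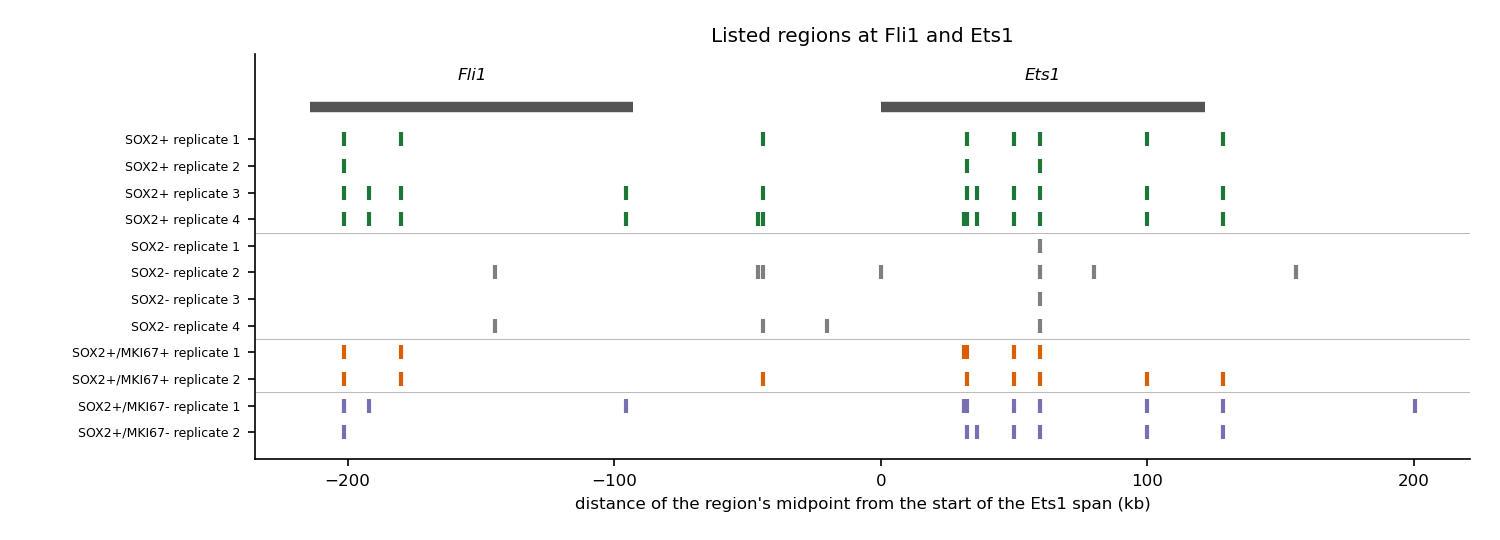
Listed regions at Fli1 and Ets1 in the 12 libraries (rows, grouped by sort), drawn at the distance of their midpoint from the start of the Ets1 span in kb; grey bars are the gene spans. The region 59.8 kb from the start is marked in all 12 rows, and 6 regions are marked in 3 or 4 SOX2+ rows and no SOX2- row.

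Markers of blood and endothelial cells were counted beside Ets1 and Fli1. Of 12 endothelial markers 3 had no peak in SOX2+, 2 in SOX2-, 5 in SOX2+/MKI67+ and 5 in SOX2+/MKI67- libraries, and their summed peaks per 10000 ran 2.13 to 5.09 in SOX2+ cells and 2.37 to 7.25 in SOX2- cells. Tie1 had no peak in any library, and Sox17 had a peak in 11 of 12 libraries. Cdh5, an endothelial cadherin, averaged 3.0 ± 1.83 peaks in SOX2+ libraries, against 1.75 ± 2.06 in SOX2- libraries (SD, n = 4 each). Most of the list went the other way. Of 10 endothelial markers tested 3 were higher and 7 lower in SOX2+ than in SOX2- cells, with a median log2 difference of -0.38. Of 12 microglia and macrophage markers 8 had no peak in SOX2+ and 9 in SOX2- libraries, Csf1r, Cx3cr1 and Aif1 among them. Of 12 lymphocyte markers 10 had no peak in SOX2+ and 8 in SOX2- libraries, with Cd3e at 0 in both. Irf8, a macrophage factor, averaged 1.0 ± 0.0 peaks in SOX2+ libraries, against 0.25 ± 0.50 in SOX2- libraries (log2 difference 0.71, limma adjusted p = 0.233). Ptprc, the pan-leukocyte gene CD45, averaged 1.75 ± 0.50 in SOX2+ libraries, against 0.5 ± 1.0 in SOX2- libraries (log2 difference 0.98, limma adjusted p = 0.237). Both averaged more peaks in SOX2+ libraries, and neither passed. Of 4 microglia and macrophage markers tested 3 were higher and 1 lower in SOX2+ than in SOX2- cells (median log2 difference 0.23). Of 4 lymphocyte markers tested 2 were higher and 2 lower (median -0.015). Over all 14244 genes tested 6198 were higher and 6353 lower in SOX2+ than in SOX2- cells. Of 21627 protein-coding genes 15186 had a peak in at least 1 library. Each peak went to 1 gene, so a marker at 0 may lie near a peak that went to a neighbour. The part of any of these cell types in the listings at Ets1 and Fli1 was not tested.

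Ets2, on chromosome 16, had fewer listed peaks on average in SOX2+ than in SOX2- cells, as did Etv6. Ets2 had 2, 0, 1 and 1 peaks in SOX2+ replicates 1 to 4, 1, 5, 2 and 3 in SOX2- replicates 1 to 4, 2 and 1 in SOX2+/MKI67+ cells, and 1 and 1 in SOX2+/MKI67- cells. The groups of both sorts overlapped. The log2 difference between SOX2+ and SOX2- cells was -1.01 ± 0.27 (SE; limma adjusted p = 0.172), and it missed the threshold. It was -0.50 when each list was cut to its 7009 strongest peaks, and -0.46 on the upper 50% of each list.

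Its start, chr16:95701852-95702906, was in 3 of 4 SOX2+ lists, in 4 of 4 SOX2- lists and in all 4 lists of the MKI67 sort. A region 41.3 kb before the gene, chr16:95660923-95661279, was listed in 0 of 4 SOX2+, 3 of 4 SOX2-, 1 of 2 SOX2+/MKI67+ and 0 of 2 SOX2+/MKI67- libraries. Far from the gene, the last region inside the 100 kb limit, 93.8 kb past the end, was listed in 2 SOX2- libraries only. The next region outside it, at 104.1 kb, was listed in 0 SOX2+, 2 SOX2-, 1 SOX2+/MKI67+ and 0 SOX2+/MKI67- libraries.

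At the 3 PEA3 genes the groups of both sorts overlapped. Etv5, an FGF-induced member, had 3, 2, 3 and 4 peaks in SOX2+ cells, 1, 4, 2 and 3 in SOX2- cells, 3 and 4 in SOX2+/MKI67+ cells, and 4 and 3 in SOX2+/MKI67- cells. Etv1 had 1, 1, 3 and 4 in SOX2+ cells, 1, 3, 1 and 2 in SOX2- cells, 3 and 2 in SOX2+/MKI67+ cells, and 3 and 2 in SOX2+/MKI67- cells. Etv4 had 2, 0, 1 and 2 in SOX2+ cells, 0, 1, 1 and 1 in SOX2- cells, 3 and 2 in SOX2+/MKI67+ cells, and 2 and 1 in SOX2+/MKI67- cells. The log2 differences between SOX2+ and SOX2- cells were 0.15 ± 0.07 at Etv5, 0.09 ± 0.26 at Etv1 and 0.19 ± 0.28 at Etv4 (SE), with adjusted p of 0.469, 1.0 and 0.899 (limma).

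The start of Etv5, whose sequence is printed above, lay in the region chr16:22439384-22440307. It was listed in all 12 libraries and stood in the top 5.04% of every list. A region 10.4 kb inside the gene, chr16:22428778-22429501, was listed in every library but SOX2- replicate 1. A region at the other end, 8.33 kb beyond the span, was in 2 of 4 SOX2+ lists, in 0 of 4 SOX2- lists and in all 4 lists of the MKI67 sort.

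At Etv1 the region in all 12 libraries, chr12:38778533-38779195, lay 1.22 kb before the start and not over it. The start itself was in a separate region, chr12:38780016-38780470, listed in 2 of 4 SOX2+, 1 of 4 SOX2-, 1 of 2 SOX2+/MKI67+ and 1 of 2 SOX2+/MKI67- libraries. A region 58.6 kb past the gene was in 2 of 4 SOX2+ lists, in 1 of 4 SOX2- lists and in all 4 lists of the MKI67 sort. At Etv4 the region chr11:101784955-101785641 lay at the higher-coordinate end of the span, which need not be the 3′ end of the gene. It was listed in every library but SOX2+ replicate 2 and SOX2- replicate 1, the 2 shortest lists. A region 29.7 kb beyond the span was listed in 2 of 4 SOX2+, 0 of 4 SOX2-, 2 of 2 SOX2+/MKI67+ and 1 of 2 SOX2+/MKI67- libraries.

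Etv6, on chromosome 6, had 0, 0, 3 and 3 peaks in SOX2+ cells, 0, 5, 2 and 1 in SOX2- cells, 2 and 3 in SOX2+/MKI67+ cells, and 2 and 2 in SOX2+/MKI67- cells. The region at its start, chr6:134034777-134036209, was listed in all 12 libraries, and its peaks went to Etv6 or to the gene Gm46977 0.39 kb away by where their midpoint fell. In the 3 libraries where Etv6 stands at 0, this was the one region listed and its peak went to Gm46977. A region inside Etv6, chr6:134207684-134208344, was listed in 2 of 4 SOX2+, 3 of 4 SOX2-, 2 of 2 SOX2+/MKI67+ and 0 of 2 SOX2+/MKI67- libraries. The log2 difference between SOX2+ and SOX2- cells was -0.48 ± 0.44 (SE; limma adjusted p = 0.730).

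**Figure D3:**
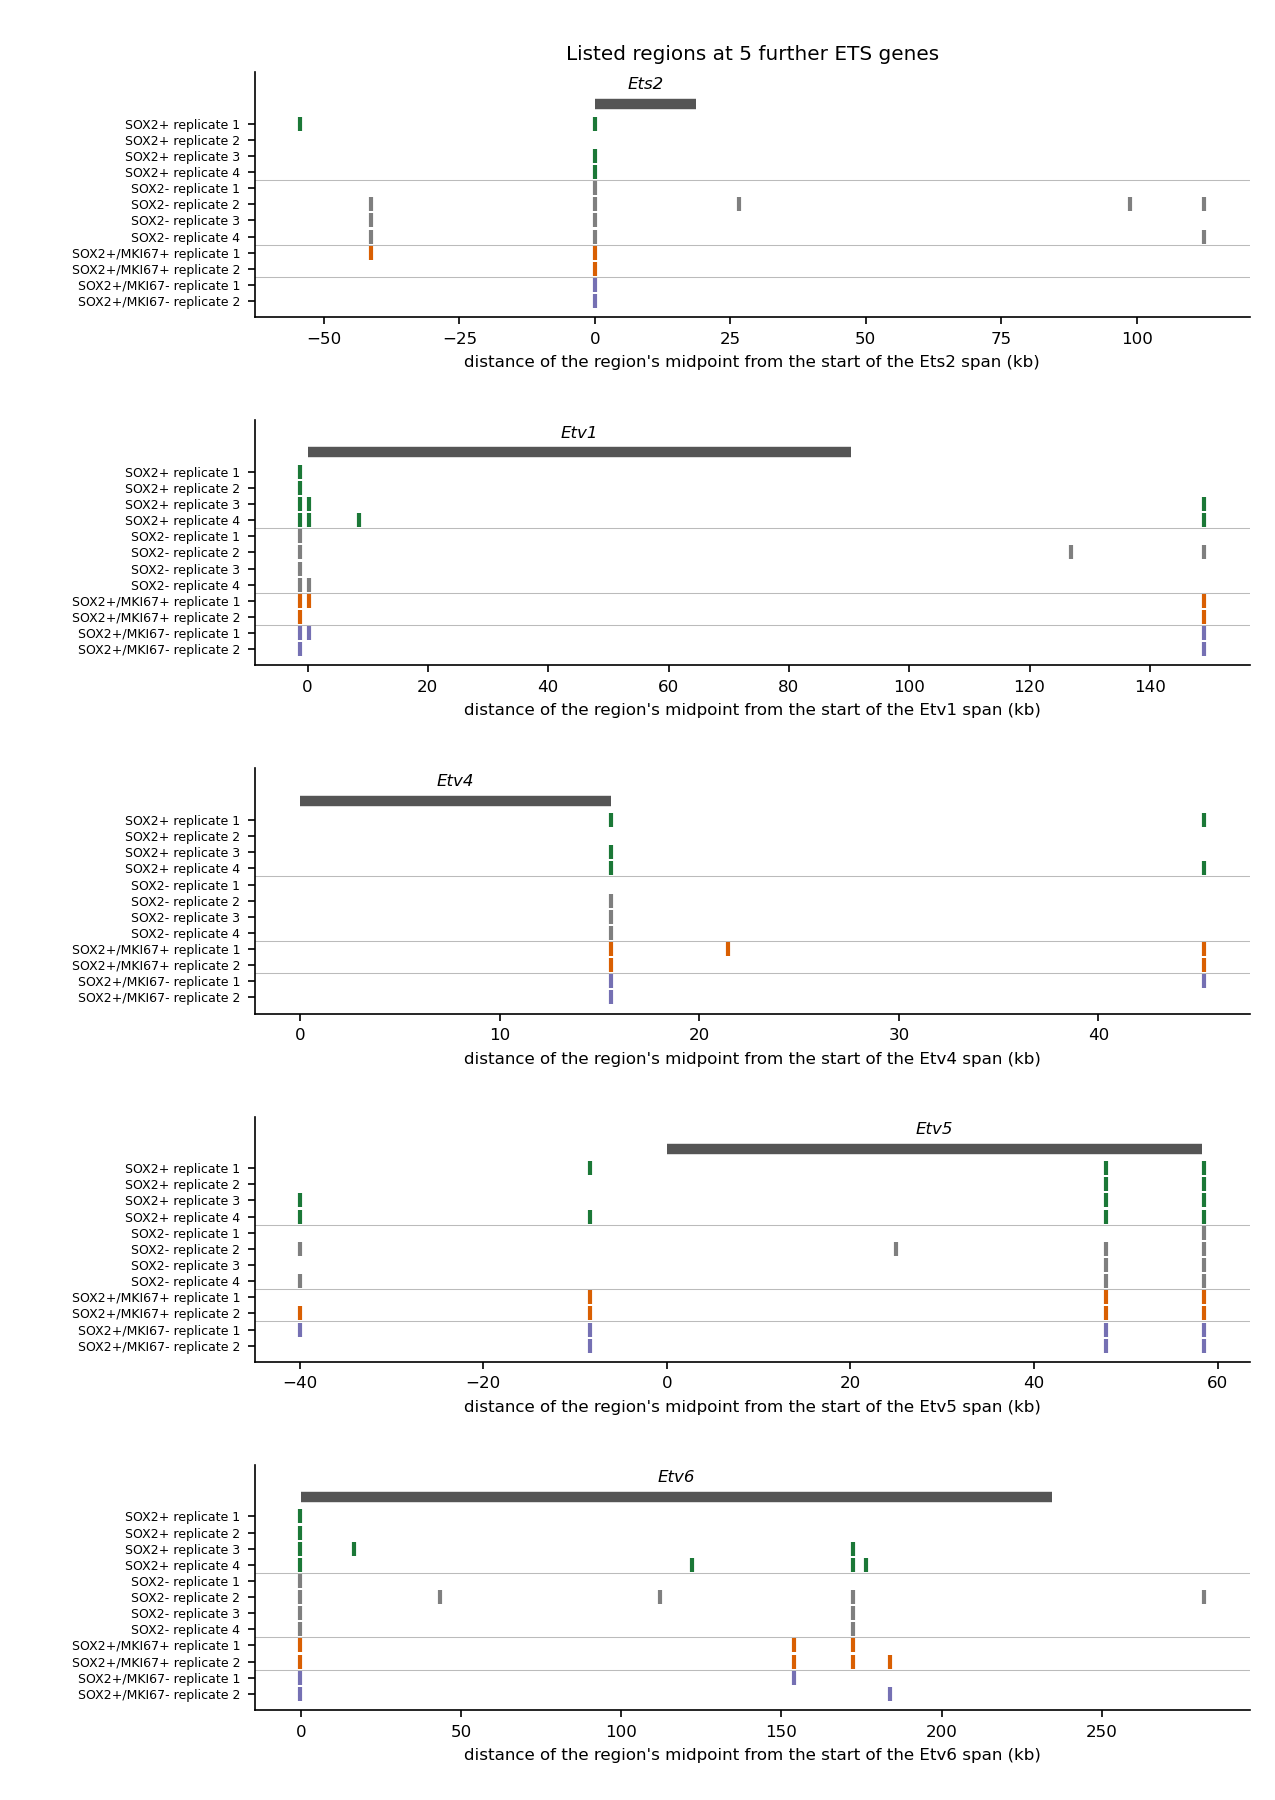
Listed regions at Ets2, Etv1, Etv4, Etv5 and Etv6 (panels) in the 12 libraries (rows), drawn at the distance of their midpoint from the start of the gene's span in kb; grey bars are the gene spans. At each of the 5 genes 1 region within about 1.2 kb of an end of the span is marked in 10 to 12 rows, and at Etv1 the region over the start is marked in 5.

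Of the 7 genes 0 passed an adjusted p of 0.05 in SOX2+ against SOX2- cells (limma), where 0.892% of 14244 genes passed in either direction. Of these 127 genes 108 were higher (0.758%) and 19 lower (0.133%) in SOX2+ cells. An unadjusted p under 0.05 (limma) was found at 1889 of 14244 genes. Among the members it was 0.0033 at Fli1, 0.0046 at Ets1, 0.0070 at Ets2 and 0.076 or more at the rest (limma). The members were picked with earlier results known, so these values are a description. The members' median log2 difference was 0.15, against 0.0 over all genes tested. In SOX2+/MKI67+ against SOX2+/MKI67- cells 0 of 7 passed (limma), where 0.225% of genes passed (0.119% higher and 0.105% lower). There 665 genes had an unadjusted p under 0.05, and the lowest among the members was 0.087 at Ets1 (limma). The groups did not overlap at 0 of 7 members in either sort, against 1.22% of genes in SOX2+ against SOX2- and 9.57% in SOX2+/MKI67+ against SOX2+/MKI67- cells.

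The genes tested include 1703 with the same number of peaks in all 12 libraries, which have no spread of their own and enter the shared estimate of it. Leaving them out, a setting added after its result was seen, gave 233 genes passing in SOX2+ against SOX2- and 0 in SOX2+/MKI67+ against SOX2+/MKI67- cells. The 32 calls of the MKI67 sort thus depend on those genes. With them left out the adjusted p was 0.0541 at Fli1, 0.0912 at Ets2 and 0.0935 at Ets1 (limma), so 0 of 7 members passed here as well.

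**Figure D4:**
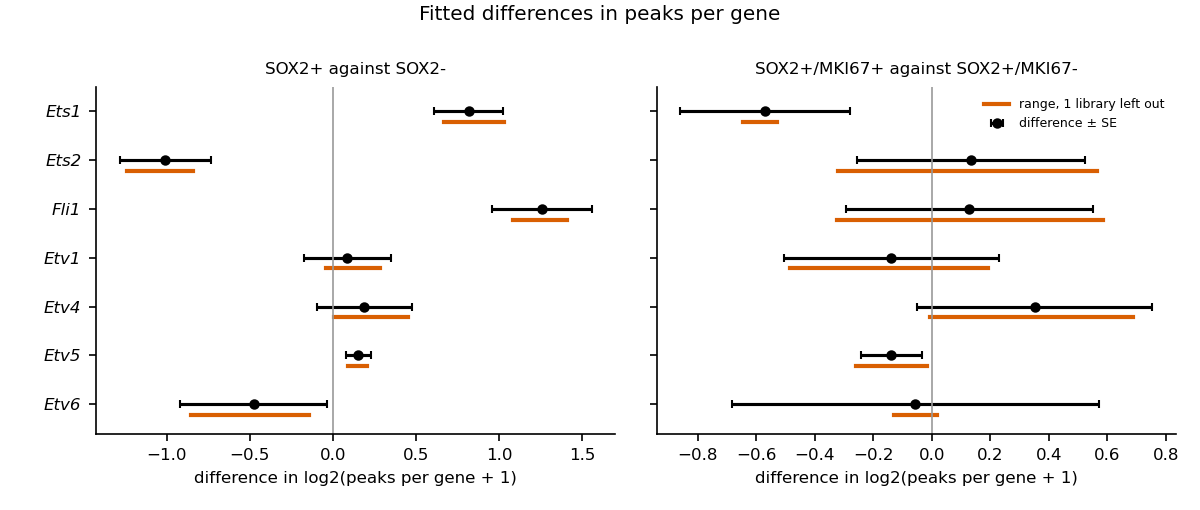
Differences in log2(peaks per gene + 1) at the 7 genes for SOX2+ against SOX2- (left) and SOX2+/MKI67+ against SOX2+/MKI67- (right), with SE (black) and the range when 1 library at a time was left out (orange). At Ets1 the range in the left panel runs 0.67 to 1.03.

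Region by region, 6 of the 48 (12.5%) were found in 3 or 4 SOX2+ libraries and in none of the SOX2- libraries, against 4.06% of all 39883 regions given to a gene. Of these, 4 were at Ets1 and 2 at Fli1. In 4 of 4 SOX2+ and in none of the SOX2- libraries were 2 of 48, against 1.58% of all. The rule is a description, as Fisher's exact test per region cannot go below p = 0.0286 with 4 libraries a group, and 0 of 39883 regions passed after adjustment (688 at an unadjusted p under 0.05). With each list reduced to its 7009 strongest peaks, 0 member regions met the rule, against 1.48% of all regions, and on the upper 50% of each list 1 did, against 1.64% of all. Of the 6 regions 3 were listed in all 4 libraries of the MKI67 sort, against 61.4% of all such regions, and 0 were in none of these libraries, against 1.6%.

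In the other direction 1 region of 48, at Ets2, was found in 3 of 4 SOX2- libraries and in none of the SOX2+ libraries, against 1.39% of all regions given to a gene. It was also listed in 1 SOX2+/MKI67+ library. In SOX2+/MKI67+ but not SOX2+/MKI67- cells (2 of 2 against 0 of 2) were 2 regions, at Fli1 and Etv6, against 3.87% of all. In SOX2+/MKI67- but not SOX2+/MKI67+ cells were 0 regions, against 0.915%. Regions listed in a single library were 18 of 48, against 29.1% of all, and 10 of the 18 (55.6%) came from SOX2- replicate 2, the longest list, against 33.3% of all regions listed once.

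**Figure D5:**
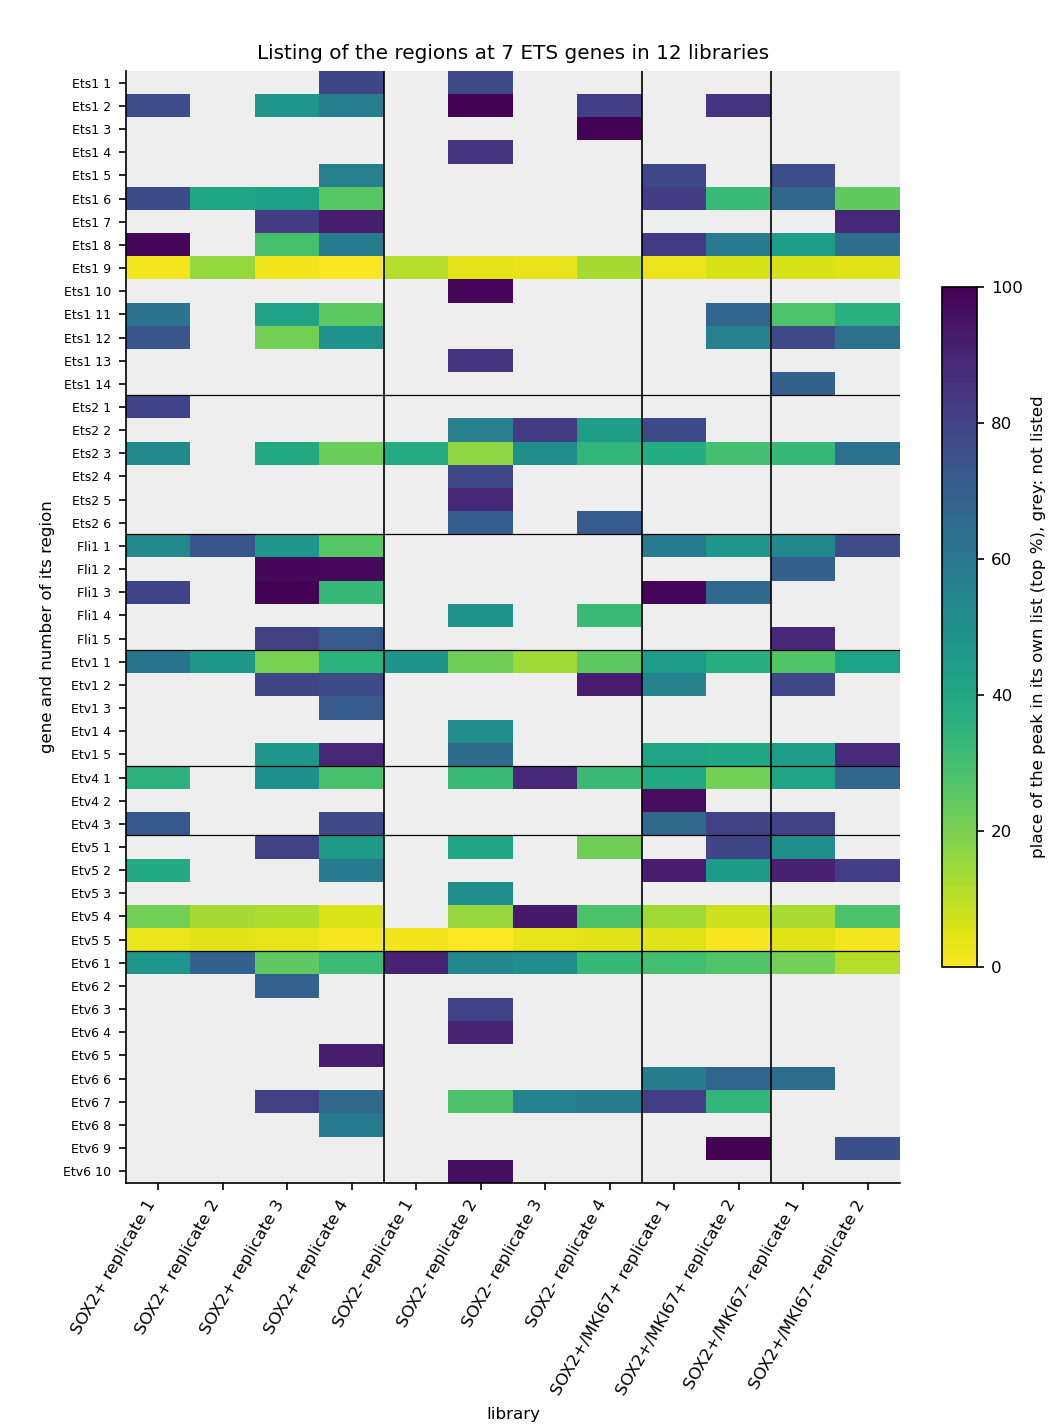
The 48 regions at the 7 genes (rows) in the 12 libraries (columns, by group), coloured by the place of the region's best peak in its own list (top percent by q-value), grey where not listed. Ets1 region 9 stands in the top 15.6% and Etv5 region 5 in the top 5.04% of every list, and 4 of the 48 regions are listed in all 12 libraries.

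By Pearson correlation over the 12 libraries of log2(peaks + 1), after removal of a linear fit on list length, the genes most like Ets1 were Dlc1 (r = 0.939), Accsl (0.923), Tmem68 (0.919), Cttnbp2nl (0.906) and Matr3 (0.906). Among the members Fli1 had r = 0.718, Etv5 0.578 and Ets2 -0.58. The values share libraries and are small whole numbers, and the correlations are a description. Kirrel3, an adhesion molecule, is the next protein-coding gene after Ets1 but lies 1728 kb away. It averaged 5.75 ± 3.59 peaks in SOX2+ libraries, against 4.25 ± 4.35 in SOX2- libraries (SD, n = 4 each). Erg, the ETS gene 115.8 kb before Ets2, averaged 1.75 ± 1.5 in SOX2+ libraries, against 1.0 ± 1.41 in SOX2- libraries (SD, n = 4 each). None of the neighbours of the 7 genes passed in either sort (limma).

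Of 19 other ETS family genes 16 were tested and 0 passed in either sort (limma), with a median log2 difference between SOX2+ and SOX2- cells of 0.06 against 0.0 over all genes. Those with the most peaks were Elf2, Elk3 and Gabpa. Of 19 FGF receptor and MAP kinase pathway genes 18 were tested and 0 passed, with a median of 0.0, and those with the most peaks were Pdgfra, Sos1 and Fgfr1. Of 12 feedback genes of ERK signalling 0 passed, with a median of 0.19. Spred2, an inhibitor of the pathway, averaged 4.5 ± 1.91 peaks in SOX2+ libraries, against 3.5 ± 3.11 in SOX2- libraries (SD, n = 4 each). By the same test Nkx2-2 and Olig2, factors of oligodendrocyte progenitors, were higher in SOX2+ cells (limma adjusted p = 0.0048 and 0.0317), and Nhlh1, a factor of granule neuron differentiation, was lower (adjusted p = 0.0275).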

How the data were processed

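ATAC-seq libraries of sorted cells were read as 50 bp single ends, per the labels' protocols. Bowtie2, MACS2 and mm10 are named in the submitters' processing notes, without versions; no source used here gives duplicate handling, offset shift or peak threshold. The authors provided 1 peak list per library, as deposited. Each peak has a whole-number score, a fold over local background (a ratio), and −log10 p and q values, all as deposited by the authors. Within a list, q-values ranked the peaks and folds described single peaks.

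The members and gene lists were chosen with earlier results of these data known. Each peak went to the nearest of 21627 protein-coding genes (RefSeq, GRCm38.p6) within 100 kb. All 115 listed symbols matched. Peaks overlapping by 1 bp were merged. Tested were all genes with peaks in 2 or more libraries, using limma 3.58.1 (R 4.3.3) on log2(peaks + 1), 4 groups in 1 fit with log10 of list length as covariate, trended eBayes, and Benjamini-Hochberg adjustment over all genes (threshold 0.05); the script was tested on simulated data. Named were the 7 members, listed genes that passed (up to 6 a list) or else those with the most peaks, Sox2, Mki67, the neighbours and the 5 genes most like Ets1. Alternatives were pseudocount, filter, covariate, libraries, distance, list length, and each library left out; 3 more were added after seeing the data, 1 of them (leaving out genes with 1 value in every library, whose zero variances limma offsets) also in combination with each of the others fitted by limma. Intervals for depth could not be given, as no read counts were used. Sequences of regions away from gene starts are not analysed here.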

Additional observations from a re-analysis of the deposited data

Results flagged for a closer look

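At Etv4, SOX2- replicate 1 had 0 peaks and the other 3 SOX2- libraries 1 each, so that its gap to the others spans the whole range of the group. This library had the shortest list, with 7009 peaks. Of 16 groups of 4 libraries examined 1 stood out in this way, where chance flags about 1 in 20 groups of continuous values. That rate does not carry over to counts of 0 and 1, where any single differing library spans the range.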

How the results depend on the processing

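The number of members passing in SOX2+ against SOX2- cells was 0 as designed and 1 in 2 of 23 alternatives (Ets1 without SOX2- replicate 1, and with the 2 shortest lists left out). It ran 0 to 1 with 1 library left out. Leaving out genes with 1 value in every library, added after both results were seen, gave 0 members, 233 genes in place of 127 in SOX2+ against SOX2- and 0 in place of 32 in SOX2+/MKI67+ against SOX2+/MKI67- cells. Combined with the 22 other alternatives, that step gave 1 member in 5: Fli1 with a pseudocount of 0.5 (adjusted p = 0.041, limma) and with peaks required in 4 or more libraries (0.0489), Ets2 without SOX2+ replicate 1 (0.0479), and Ets1 without SOX2- replicate 1 (0.0174) and without the 2 shortest lists (0.0236). No member passed in SOX2+/MKI67+ against SOX2+/MKI67- cells under any of these.

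All genes passing in SOX2+ against SOX2- cells were 60 with the replicate block, 231 with equal peak numbers, 72 with the upper 50% of each list, 253 without the 2 shortest lists and 85 to 199 with 1 library left out. In SOX2+/MKI67+ against SOX2+/MKI67- cells they were 12 with peaks required in 4 or more libraries, 315 with the libraries of that sort only, 56 with equal peak numbers, 65 without the 2 shortest lists and 32 to 82 with 1 library left out. The labels do not say that equal replicate numbers mark a shared tumour, and not every pair correlated above 0.1, so no pairing was assumed. The deviations of same-numbered libraries correlated at -0.0069, 0.406, 0.078 and -0.181 for the SOX2 sort, and at 0.0611 for the MKI67 one, a single value since deviations of 2 libraries mirror each other. With the replicate block 0 members passed in both sorts.

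Regions in 3 or 4 SOX2+ and no SOX2- libraries were 6, and 0 with equal peak numbers (1.48% of all regions), 1 with the upper 50% of each list (1.64%), 2 under the rule of all libraries against none (1.58%), 2 where a peak had to cover at least 50% of its region (3.4%), and 2 to 6 with 1 library left out. Regions in 3 or 4 SOX2- and no SOX2+ libraries were 1, and 0 under the first 3 of these settings (0.815%, 0.451% and 0.14% of all), with 0 to 1 with 1 library left out. Regions in SOX2+/MKI67+ only were 2, and 0 with equal peak numbers (0.715% of all) or the upper 50% (1.78%), with 2 to 4 left-out values. Regions in SOX2+/MKI67- only were 0, and 1 with equal peak numbers (0.677%), 1 with the upper 50% (0.374%) and 0 to 3 with 1 library left out. The planned overlap setting is met by merged regions by construction.

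No member passed in the fit as designed, so a change of sign could only fall at a member that did not pass. In SOX2+ against SOX2- cells Etv1 was -0.50 with equal peak numbers, -0.11 with the upper 50% of each list, and -0.042 to 0.28 with 1 library left out. In SOX2+/MKI67+ against SOX2+/MKI67- cells Ets2 was -0.50 with equal peak numbers, Etv1 0.14 with the libraries of that sort only and 0.28 with the upper 50%, Etv5 0.10 with the upper 50%, and Etv6 0.21 without the covariate and 0.42 with the upper 50%. With 1 library left out there, Ets2 ran -0.32 to 0.56, Fli1 -0.32 to 0.59, Etv1 -0.48 to 0.19, Etv4 -0.005 to 0.69 and Etv6 -0.13 to 0.017. The cause was not tested.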
